A study of Mus musculus with 232 samples.

Results

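The genes described here are the core machinery that makes microRNAs (miRNAs) and silences mRNAs with them: Drosha, Dgcr8, Xpo5, Dicer1, Tarbp2, Ago1, Ago2, Tnrc6a, Tnrc6b and Tnrc6c. They were chosen by name for their roles in the pathway and are 10 of the 42493 genes counted in each cell. All 10 were matched by symbol and had a mean count of 5 or more over all cells, as did 11186 genes in total. They were measured in single mouse embryonic stem cells (ESCs) grown with serum, LIF and 2i, the pair of inhibitors PD0325901 and CHIR99021 that holds ESCs in the naive state, and captured on Fluidigm C1 chips 24 hours after transfection. The conditions were 60 mock-transfected Dgcr8-/- cells, 58 Dgcr8-/- cells given a mimic of miR-294, 48 Dgcr8-/- cells given a mimic of let-7, and 16 wild-type cells of the V6.5 line, for which the labels name no mimic. Dgcr8-/- cells cannot process most primary miRNAs, so a mimic acts there without competing miRNAs of the cell's own. The mock, miR-294 and let-7 cells all lack Dgcr8, and comparison with wild-type cells is therefore a comparison of genotype.

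In the nucleus, the RNase III enzyme Drosha and its partner DGCR8, which binds the primary transcript, cut out a hairpin precursor. Exportin 5, encoded by Xpo5, carries the hairpin to the cytoplasm, where Dicer and its RNA-binding partner TRBP, encoded by Tarbp2, trim it to a short duplex. An Argonaute protein keeps one strand of that duplex, finds mRNAs by pairing with the seed of the miRNA, and recruits a GW182 protein of the TNRC6 family, which brings in the enzymes that remove the poly(A) tail. A mimic is a ready-made duplex that enters at the Argonaute step, past Drosha, Exportin 5 and Dicer. In ESCs, the miR-290 family, to which miR-294 belongs, is abundant and promotes rapid division, whereas let-7 is held back by LIN28 and rises as cells differentiate.

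The mature sequences are shown because the seed, bases 2 to 8 and in capitals here, decides which matches were searched for in the machinery genes. Sequences are 5′ to 3′ and come from RefSeq on build GRCm38.p6. miR-294-3p lies at chr7:3220691-3220712 on the plus strand, let-7c-5p at chr16:77599672-77599693 and chr15:85706616-85706637 on the plus strand, let-7b-5p at chr15:85707325-85707346 on the plus strand and let-7i-5p at chr10:122985698-122985719 on the minus strand.
miR-294-3p: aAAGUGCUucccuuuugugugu
let-7c-5p: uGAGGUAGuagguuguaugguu
let-7b-5p: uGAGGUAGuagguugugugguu
let-7i-5p: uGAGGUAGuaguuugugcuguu
The sources name the let-7 mimic differently, as let-7i in the sample titles, let-7b in the series' design and let-7c in the study's methods. These members share the seed GAGGUAG, so the search for matches was the same for each.

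Each condition came from 1 chip with no separate culture named. Cells of a chip are not replicates of a condition, so no test between conditions was made and chip and condition cannot be told apart. A mean ± SD below describes the spread over cells. Values are normalised read counts (the expected counts of all runs of a cell, added up and divided by a size factor). Exact binomial intervals on shares take the cells as independent draws. Counting intervals on summed counts take the reads as independent, although reads were not tagged by molecule. Neither kind covers differences between chips or cultures. Total counts per cell ran from 513521 to 3979274, with condition medians from 1307481 to 1574732, and the median number of genes with a count was 7784 in mock, 7995.5 in miR-294, 8030 in let-7 and 7734 in wild-type cells. Of 8 pluripotency markers all were counted in every condition, with a median summed level of 6272 in mock, 6555 in miR-294, 3388 in let-7 and 5171 in wild-type cells. Fibroblast markers, 7 in all, summed to a median of 0 in each condition, with 4 or 5 of them at 0 in every cell of the condition and a highest single-cell sum of 350 in let-7 and 32.4 elsewhere.

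Some libraries stood apart. In 4 pairs of titled cells, 3 in let-7 and 1 in miR-294, the log counts of the cells correlated at 0.981 to 0.991, as those of 2 runs of one cell did (0.971 to 0.990 in 48 cells), while all other pairs of runs from different cells stayed at or below 0.740. The count chi-square per gene was 1.82 to 5.42 within these pairs and 1.27 to 6.19 between the runs of one cell, so they differed by no more than repeat sequencing does. In 2 further cells, 1 let-7 and 1 wild-type, the 2 runs correlated at only 0.517 and 0.521, as different cells do. One run of that wild-type cell held 0 counts of Lin28a and the other 431. Main values use all 182 titled cells. Some means, ratios and shares are also given with each pair counted as 1 cell and without these 2 cells. That leaves 60 mock, 57 miR-294, 44 let-7 and 15 wild-type cells. Intervals, shares of cells without both Dicer1 and Tarbp2, and correlations between genes are given for all titled cells only. The study also removed, before deposit, a few mimic-treated cells in which targets from an earlier list were not lowered. That list held Tarbp2 for let-7 and Tnrc6c for miR-294, so the levels of these genes took some part in choosing the cells.

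Dgcr8, the gene targeted in the knockout, was still counted in most Dgcr8-/- cells. Its level ran from 0 through a median of 11.6 to 821 normalised counts in mock cells, with a mean of 51.5 ± 117 (SD, n = 60 cells). In wild-type cells it ran from 2.29 through 57.4 to 591, with a mean of 118 ± 165 (SD, n = 16 cells). The ranges overlapped, but 81.2% of wild-type cells lay above the mock median. The mock mean was lower by a log2 difference of -1.20, and by -1.18 when the highest cell of each condition was left out. In cells with 1 run the difference was -0.77, short of 2-fold. A count per gene covers exons outside the deletion and so does not check the knockout itself. In addition, 10.2% of the 31-base runs of Dgcr8 transcripts are shared with Trmt2a, which overlaps it on the other strand (Dgcr8 lies at chr16:18253948-18289246, minus strand, Gencode M21). Trmt2a, a tRNA methyltransferase gene, had means of 66.6 to 70.9 in the 4 conditions. The miR-294 and let-7 cells had Dgcr8 means of 66.6 ± 87.8 and 40.2 ± 62.6.

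**Figure D1:**
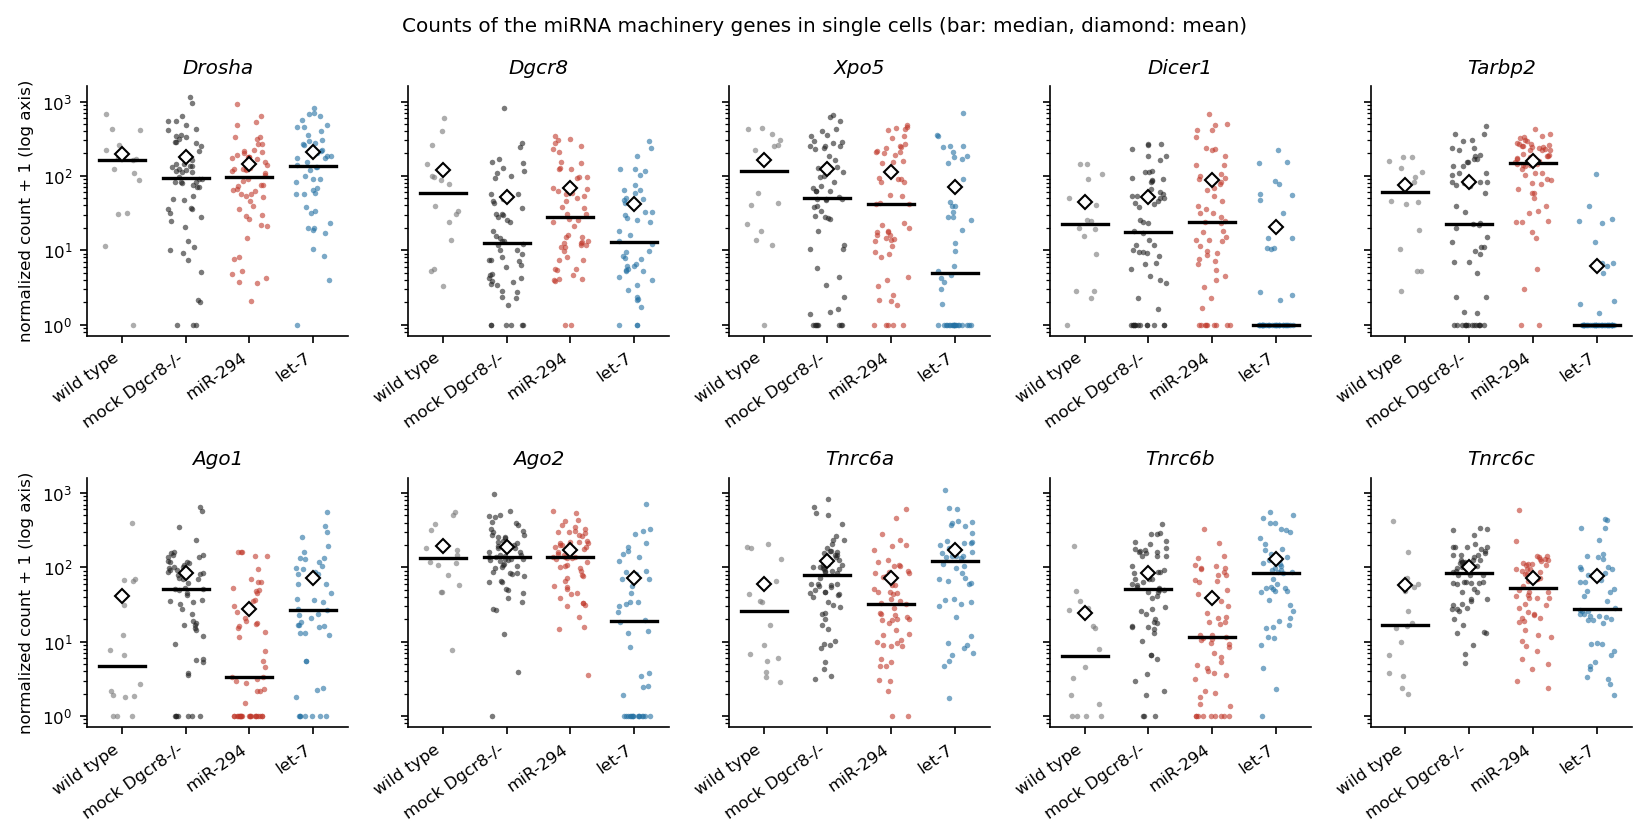
Normalised count plus 1 (log axis) of each machinery gene in every cell, by condition, with the median as a bar and the mean as a diamond. Tarbp2 and Dicer1 have a median of 0 in let-7 cells, while the Tarbp2 median in miR-294 cells is 149.

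Of the 10 genes in the 3 comparisons, Tarbp2 had the largest ratio of means, being lower in let-7 than in mock cells. In mock cells Tarbp2 ran from 0 through a median of 21.6 to 471 normalised counts, and the mean was 82.4 ± 110.2 (SD, n = 60 cells). In let-7 cells it ran from 0 through a median of 0 to 104, with a mean of 5.17 ± 16.6 (SD, n = 48 cells). A Tarbp2 count was found in 13 of 48 let-7 cells (27.1%, 95% exact binomial interval 15.3 to 41.8%) against 46 of 60 mock cells (76.7%, 64 to 86.6%), and the single highest let-7 cell gave 41.9% of the condition's 339 counts. The log2 ratio of means, let-7 over mock, was -3.99, lower than in all but 0.679% of the 11186 genes. With cells weighted by depth it was -3.56. Setting opposite ends of the separate 95% counting intervals of the 2 summed counts against each other gave -3.75 to -3.36. Within cells of 1 run the log2 ratio of means was -5.18 and within cells of 2 runs, 7 of them let-7, it was -1.51. The mean with pairs counted once and without the 2 discordant cells was 5.63 in let-7 cells, with a count in 13 of 44 (29.5%).

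Tarbp2 differed the other way with miR-294. The miR-294 cells ran from 0 through a median of 149 to 419.6, with a mean of 156 ± 108 (SD, n = 58 cells), and 89.7% of them lay above the mock median. A count was found in 96.6% of them (95% exact binomial interval 88.1 to 99.6%). The log2 ratio of means over mock was 0.92, short of 2-fold, but the ratio of medians was 2.78 on the log2 scale and the depth-weighted ratio 1.10. Wild-type cells had a mean of 73.2 ± 62.6, a median of 59.2 and a count in all 16. The mock cells were split, with 14 of 60 at 0, so the mock mean was near that of wild type (log2 difference 0.17) while the mock median was lower. Tarbp2 lies at chr15:102518192-102523676 on the plus strand, and 16.6% of the 31-base runs of its transcripts are shared with Gm18584, for which no count was found by symbol, so reads from that copy would be counted uncertainly.

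Dicer1, which encodes the enzyme that TRBP partners, was also lower in let-7 cells. Mock cells ran from 0 through a median of 16.7 to 271 normalised counts, with a mean of 51.3 ± 72.1 (SD, n = 60 cells). In let-7 cells the range was 0 to 219 with a median of 0 and a mean of 19.8 ± 45.6 (SD, n = 48 cells). A count was found in 18 of 48 let-7 cells (37.5%, 95% exact binomial interval 24.0 to 52.6%), 47 of 60 mock cells (78.3%), 49 of 58 miR-294 cells (84.5%) and 15 of 16 wild-type cells. The let-7 over mock log2 ratio was -1.38, and -1.32 and -2.35 within cells of 1 and 2 runs. Counting pairs once and leaving out the discordant cell lowered the let-7 mean to 16.7, with a count in 15 of 44 cells (34.1%). With miR-294 the Dicer1 mean was 88.2 ± 148, a log2 ratio of 0.78 over mock, or 1.08 with cells weighted by depth. Mock and wild-type means, 51.3 and 42.9 ± 50.3, gave a log2 ratio of 0.26, mock over wild type, and the medians gave -0.35.

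Many let-7 cells had no count of either gene of the Dicer step. A cell without a count can still hold the mRNA. Of 48 cells with 2 agreeing runs, 4 had a Dicer1 count in 1 run only, and 4 had a Tarbp2 count in 1 run only. Neither Dicer1 nor Tarbp2 was counted in 23 of 48 let-7 cells (47.9%, 95% exact binomial interval 33.3 to 62.8%), against 2 of 60 mock cells (3.33%, 0.406 to 11.5%) and none of the 58 miR-294 and 16 wild-type cells, which allow shares of up to 6.16% and 20.6% by the same interval. The product of the separate shares of cells without each gene in let-7 was 45.6%, close to the share without both. With every cell thinned to 500000 counts, so that depth was equal, the shares were 50% in let-7 and 6.67% in mock cells.

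**Figure D2:**
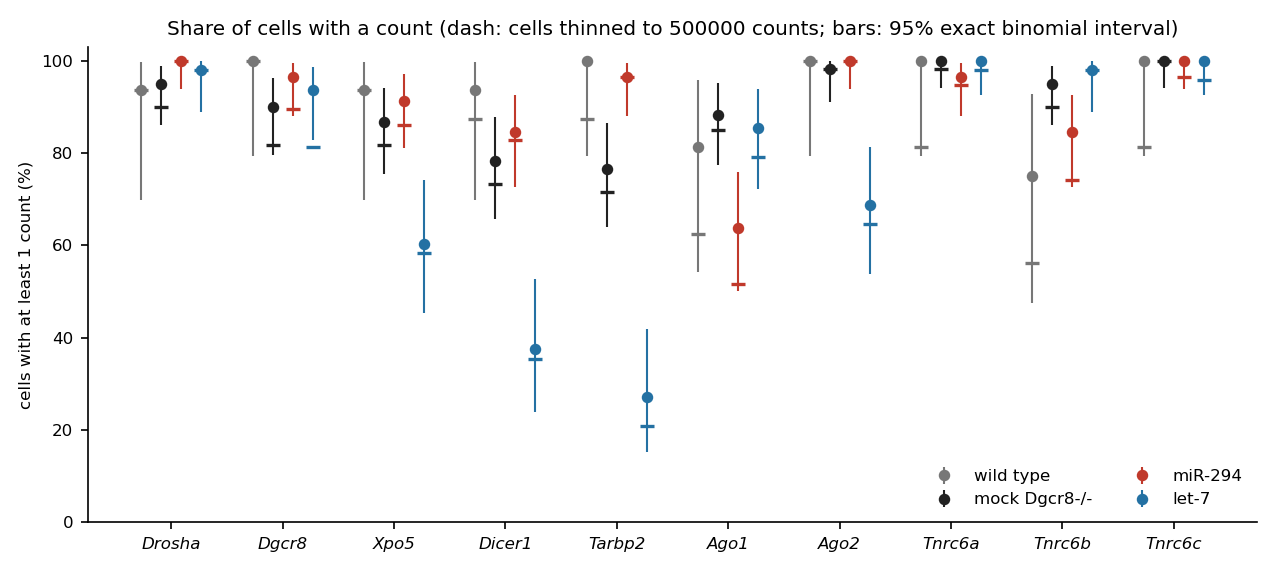
Share of cells with at least 1 count (percent) for each gene and condition, with the 95% exact binomial interval as a bar and the share after thinning to 500000 counts as a dash. In let-7 cells Tarbp2, Dicer1, Xpo5 and Ago2 have shares of 27.1, 37.5, 60.4 and 68.8%, below those of the other conditions.

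Xpo5 was lower in let-7 cells at the median more than at the mean. Its mock mean was 123 ± 160.4 and its let-7 mean 70.8 ± 134 normalised counts, a log2 ratio of -0.79 that is short of 2-fold. The medians were 49.5 and 3.89, a ratio of -3.67 on the log2 scale. A count was found in 60.4% of let-7 cells (95% exact binomial interval 45.3 to 74.2%) and 86.7% of mock cells (75.4 to 94.1%). The miR-294 mean was 110.1 ± 139 and the wild-type mean 165 ± 159, and the 4 ranges overlapped, each starting at 0. With pairs counted once the log2 ratio to mock was -0.98, without the discordant cells it was -0.83, and with both changes the let-7 mean was 60 and the ratio -1.03, past 2-fold.

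Drosha means were 177 ± 226 in mock, 143 ± 170 in miR-294, 206 ± 210.5 in let-7 and 194 ± 182 in wild-type cells, and the log2 ratios were between -0.31 and 0.21 in the 3 comparisons. The mock over wild-type ratio of -0.13 was -0.54 with cells weighted by depth, and 0.27 and -1.5 within cells of 1 and 2 runs, where 2 of the latter are wild-type and 1 of these is the discordant cell. A Drosha count was found in 93.8 to 100% of the cells of each condition.

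Of the Argonautes, Ago2, which encodes the one that can cut its target, was lower in let-7 cells, as were Dicer1 and Tarbp2. Mock cells ran from 0 through a median of 137 to 983 normalised counts, with a mean of 187 ± 169 (SD, n = 60 cells). The let-7 cells ran from 0 through 18.2 to 719, with a mean of 70.5 ± 128 (SD, n = 48 cells), and 95% of mock cells lay above the let-7 median. An Ago2 count was found in 33 of 48 let-7 cells (68.8%, 95% exact binomial interval 53.7 to 81.3%), 59 of 60 mock cells and all miR-294 and wild-type cells. The log2 ratio, let-7 over mock, was -1.40, with -1.56 and -2.19 within cells of 1 and 2 runs. With pairs counted once and without the discordant cell, the let-7 mean was 75.3 and the ratio -1.31. The miR-294 mean of 168 ± 130.4 and the wild-type mean of 189.9 ± 166 gave log2 differences of -0.15 (miR-294 over mock) and -0.02 (mock over wild type). Part of Ago2 overlaps Chrac1 on the other strand, whose means were 60.1 in mock and 39.5 in let-7 cells, and the kit does not mark strand.

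Ago1 had another order. Mock cells ran from 0 through a median of 50.2 to 657 normalised counts, with a mean of 82.2 ± 119 (SD, n = 60 cells). In miR-294 cells it ran from 0 through 2.35 to 162, with a mean of 26.1 ± 44.5 (SD, n = 58 cells), and 88.3% of mock cells lay above the miR-294 median. The wild-type median was low too, with 0, 3.70 and 389 as lowest, median and highest and a mean of 40.5 ± 96.4 (SD, n = 16 cells). The log2 ratio of miR-294 over mock was -1.66, or -0.87 in the deposited FPKM, and within cells of 1 and 2 runs it was -1.20 and -2.16. The mock over wild-type ratio was 1.02, but 1 wild-type cell gave 46.7% of that condition's counts, and without the highest cell of each condition the ratio was 2.07. In cells with 1 run it was 0.53. The let-7 cells, with a mean of 71.8 ± 107, were near mock by the mean (log2 ratio -0.20). Their median of 25.9 was lower, at -0.95 on the log2 scale, while within cells of 1 run the ratio of means was 0.27.

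The GW182 genes, whose products link Argonautes to deadenylation, each had their 2 highest means in let-7 and mock cells. Tnrc6b ran from 0 through a median of 50.2 to 378 normalised counts in mock cells, with a mean of 83.1 ± 88.1 (SD, n = 60 cells). In miR-294 cells its mean was 37.5 ± 59.1, with a median of 10.4 and a highest value of 326, and in wild-type cells 23.1 ± 47, with a median of 5.32 and a highest value of 191. The let-7 mean was 128 ± 142, and 117 with pairs counted once and without the discordant cell. Tnrc6b in miR-294 cells thus stood at a log2 ratio of -1.15 to mock, with -0.90 and -1.64 within cells of 1 and 2 runs. Its mock over wild-type ratio was 1.85, although the highest wild-type cell gave 56.6% of the wild-type counts, and 2.72 without the highest cells.

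Tnrc6a had the same order of means, with 170.1 ± 206 in let-7, 122 ± 159.9 in mock, 69.8 ± 109 in miR-294 and 58 ± 74.3 in wild-type cells. Its log2 ratio was -0.81 for miR-294 over mock, 0.48 for let-7 over mock and 1.07 for mock over wild type. The last was at or past 2-fold by a narrow margin and stood at 0.49 with cells weighted by depth. Tnrc6c was counted in every cell, with means of 99.7 ± 80.1 in mock, 70.4 ± 83.6 in miR-294, 75.9 ± 108 in let-7 and 56.2 ± 104 in wild-type cells. None of its ratios of means over all cells reached 2-fold. Its mock over wild-type ratio was 0.83, but 1 wild-type cell gave 36.4% of the wild-type counts, and without the highest cell of each condition the ratio was 1.57, past 2-fold. The Tnrc6c median was 26.6 in let-7 against 81.7 in mock cells, a ratio of -1.62 on the log2 scale. In every comparison and for every gene, the ranges of the cells overlapped.

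**Figure D3:**
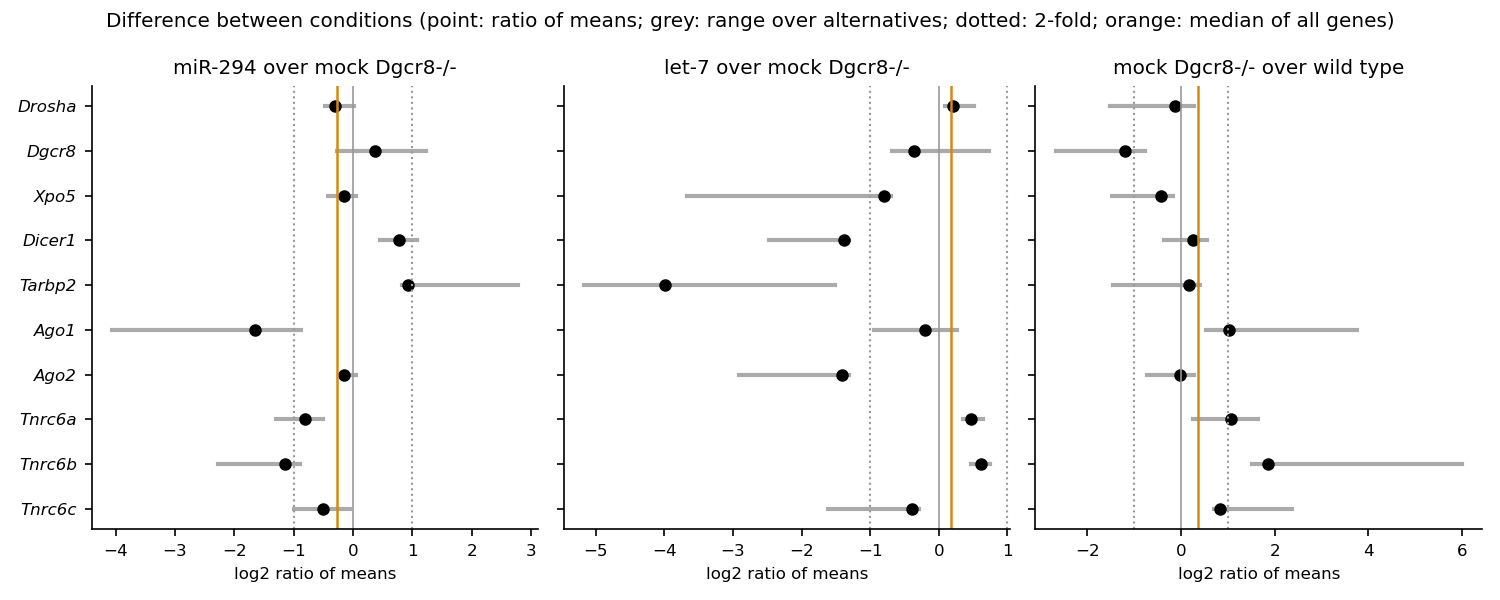
Log2 ratio of means for each gene in the 3 comparisons (points), with the range over 14 alternative ways of computing it in grey, 2-fold as dotted lines and the median of all 11186 genes in orange. Tarbp2 lies at -3.99 in let-7 over mock, Ago1 at -1.66 in miR-294 over mock and Tnrc6b at 1.85 in mock over wild type.

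The counts past 2-fold were read against those of all 11186 genes. With miR-294, 2 of 10 genes (Ago1 and Tnrc6b) were at least 2-fold lower than in mock against 20.4% of all genes, and 0 of 10 were at least 2-fold higher against 5.78% of all genes. The median log2 ratio of the 10 was -0.23 and that of all genes -0.28. With let-7, 3 of 10 (Dicer1, Tarbp2 and Ago2) were at least 2-fold lower against 9.24% of all genes, and 0 of 10 at least 2-fold higher against 18.9%. The median of the 10 was -0.37 and that of all genes 0.18. The 10 genes were chosen with earlier results of these data known, and the Tarbp2 level took some part in choosing the let-7 cells. In mock over wild-type cells, 1 of 10 (Dgcr8) was at least 2-fold lower against 9.71% of all genes and 3 of 10 (Ago1, Tnrc6a and Tnrc6b) at least 2-fold higher against 31.8%, with medians of 0.21 and 0.37. The share for miR-294 and both shares for wild type lie near the background, so those counts are not a result about the machinery. Scaling by total counts moved the median of all genes to -0.07, 0.11 and 0.15 in these comparisons, and the counts of machinery genes to 1 lower and 1 higher, 3 lower and 0 higher, and 1 lower and 1 higher. The miR-294, let-7 and wild-type comparisons share the mock cells.

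Per length, by the mean of the deposited FPKM, Tarbp2 was first of the 10 in mock cells (40.7 ± 54.5 FPKM). Drosha (27.6 ± 36.6), Xpo5 (22.5 ± 28.9) and Dgcr8 (15.2 ± 49.3) followed. Ago1, Tnrc6a, Ago2 and Tnrc6c lay between 8.33 and 9.45 FPKM, and Dicer1 and Tnrc6b were lowest at 3.45 ± 4.88 and 3.19 ± 3.32. Neighbours in this order differed by less than the spread over cells, which is not the precision of a mean. By the median of mock cells Drosha was first at 14.8 FPKM, before Tarbp2 at 11.9 and Xpo5 at 10.1. In miR-294 cells Tarbp2 was again first by the mean, at 85.9 ± 59.2, with Drosha next at 24.8 ± 28.4. The let-7 order of means placed Drosha first at 29.4 ± 29.6 FPKM and Tarbp2 at 2.31 ± 6.65, above Dicer1 alone at 1.40 ± 3.46.

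Single cells held the genes in differing sets. The median cell had counts for 9 of the 10 genes in mock and miR-294, 8 in let-7 and 10 in wild-type cells, and all 10 were counted in 27 of 60 mock, 22 of 58 miR-294, 5 of 48 let-7 and 9 of 16 wild-type cells. After thinning the medians were 9, 9, 7 and 8.5. Of the 48 cells whose 2 runs agreed, 26 to 43 per gene held at least 20 counts of it over both runs, and in these the median absolute log2 difference between runs was 0.100 to 0.306, with single differences of up to 2.62 (Dgcr8) and 2.20 (Tnrc6c). Over all mock cells, those at 0 included, the SD of log2(count + 1) was 1.41 to 3.10. Over cells, Spearman's rho over the 45 pairs of genes had a median of 0.01 in mock (n = 60 cells), 0.01 in miR-294 (n = 58) and -0.02 in let-7 (n = 48) cells, as a description of sparse counts that share each cell's library. The values ran from -0.38 to 0.29, -0.19 to 0.22 and -0.29 to 0.40, and 4 pairs exceeded 0.3, all in let-7 cells. Drosha and Dgcr8 gave both the mock minimum and the let-7 maximum.

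Matches to the seeds were then looked for in 1 transcript per gene (Gencode M21, build GRCm38), as letters complementary to bases 2 to 8, CTACCTC for let-7 and AGCACTT for miR-294, on the transcript's strand. In the 3′ UTR, a let-7 match was found in Tarbp2 and Ago2, and in 9.55% of 10354 genes with a gene model. In the coding sequence, one was found in Xpo5, Dicer1 and Tnrc6c, and in 13.9% of genes. The 3′ UTRs of the 10 machinery genes had a median of 2466.5 bases, against 1026 over all genes with a model. A longer sequence has more places for a match, and these shares were not compared at equal length. The sites in the 3 genes at least 2-fold lower in let-7 cells are shown with the match in capitals.
Tarbp2, 3′ UTR, chr15:102523429-102523451, plus strand: ccagaggtgccatctCTACCTCt
Ago2, 3′ UTR, chr15:73101724-73101746, minus strand: acagatgcataaaagCTACCTCt
Ago2, 3′ UTR, chr15:73100040-73100062, minus strand: caggtggcctctgtcCTACCTCc
Ago2, 3′ UTR, chr15:73097982-73098004, minus strand: ttttacaatgtggatCTACCTCa
Dicer1, coding sequence, chr12:104706559-104706581, minus strand: tcagcctactgtgttCTACCTCt
Dicer1, coding sequence, chr12:104702804-104702826, minus strand: tacctgtacaaccaaCTACCTCa
Dicer1, coding sequence, chr12:104702696-104702718, minus strand: ggaacgctaacacatCTACCTCa
Dicer1, coding sequence, chr12:104694696-104694718, minus strand: agatgcgattttggaCTACCTCa
Dicer1 held 4 matches and Xpo5 held 2, all in the coding sequence, and Ago2 held 3 in a 3′ UTR of 11064 bases. The single match of Tarbp2 lies at base 102 of a 3′ UTR of 334 bases. The last of the Ago2 matches and 3 of the 4 in Dicer1 are followed by an A, the letter opposite base 1 of the miRNA.

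The 5 genes with a let-7 match in either region had log2 ratios, let-7 over mock, of -3.99 (Tarbp2), -1.40 (Ago2), -1.38 (Dicer1), -0.79 (Xpo5) and -0.39 (Tnrc6c). The 5 without one had ratios of -0.36 (Dgcr8), -0.20 (Ago1), 0.21 (Drosha), 0.48 (Tnrc6a) and 0.62 (Tnrc6b). These sets lay next to each other without overlap, and the grouping was made with the ratios known. Within cells of 1 run they overlapped, with -0.28 for Tnrc6c and -0.68 for Dgcr8. Ago1, Tnrc6a and Tnrc6b each held 1 let-7 match to bases 2 to 7 in the 3′ UTR. With that shorter match counted, the sets overlapped over all cells too. Over all genes with a model, the median log2 ratio was -0.07 with and 0.20 without a let-7 match in the 3′ UTR, and -0.03 with and 0.21 without one in the coding sequence. At least 2-fold lower were 19.8% of genes with a 3′ UTR match and 8.18% without. A match is a description of the sequence and not a shown site of action. Pluripotency markers were lower in let-7 cells as given above, and the part of cell state in these differences was not tested.

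For miR-294, a 3′ UTR match was found in Tnrc6b, which had 2, and Tnrc6c, which had 1, and in 16.6% of all genes. Coding sequences of Dicer1, Ago2, Tnrc6a and Tnrc6b held matches, as did those of 13% of genes. As for let-7, these shares were not compared at equal length. Of the 31-base runs of Tnrc6b transcripts, 1.18% are shared with other genes, 4600 in all. Whether its sites lie in such shared stretches was not tested. The Tnrc6b sites are shown as those of the 1 gene that was at least 2-fold lower with miR-294 and held a 3′ UTR match.
Tnrc6b, 3′ UTR, chr15:80931313-80931335, plus strand: tgcggggaacatgctAGCACTTg
Tnrc6b, 3′ UTR, chr15:80935703-80935725, plus strand: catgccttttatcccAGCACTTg
Ago1, the gene with the lower ratio of the 2, held no full match in either region, and 3 matches to bases 2 to 7 in its 3′ UTR of 4491 bases. Over all genes, the median log2 ratio of miR-294 over mock was -0.50 with and -0.23 without a 3′ UTR match to bases 2 to 8. Grouped as for let-7, the machinery genes with a full match in either region overlapped those without one. With a match, Dicer1, Ago2, Tnrc6c, Tnrc6a and Tnrc6b had ratios of 0.78, -0.15, -0.50, -0.81 and -1.15. Without one, Tarbp2, Dgcr8, Xpo5, Drosha and Ago1 had 0.92, 0.37, -0.15, -0.31 and -1.66. Of these last genes, only Ago1 held a match to bases 2 to 7 in the 3′ UTR.

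**Figure D4:**
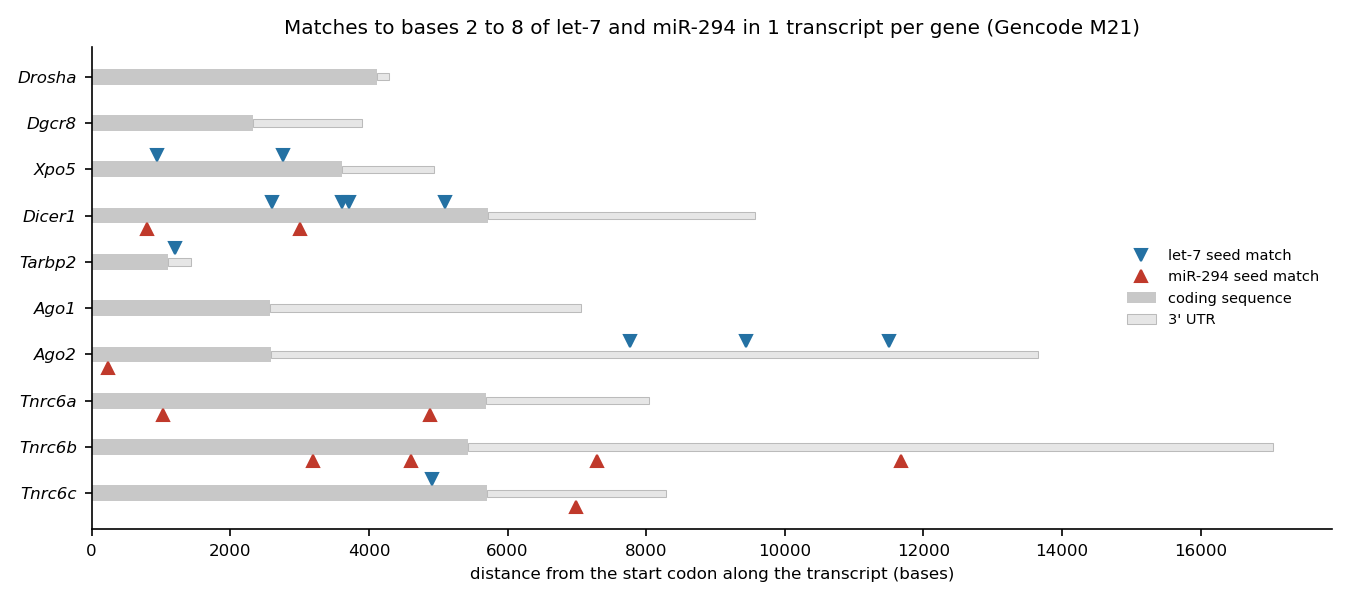
Coding sequence and 3′ UTR of 1 transcript per gene, drawn to scale by distance from the start codon in bases, with matches to bases 2 to 8 of let-7 (blue, above) and miR-294 (red, below). Dicer1 carries 4 let-7 matches in its coding sequence, Ago2 carries 3 and Tarbp2 carries 1 in the 3′ UTR, and Drosha and Dgcr8 carry none for either miRNA.

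The wider pathway was followed through 54 further genes, of which 52 passed the filter. With let-7, 5 of the 52 (9.62%) were at least 2-fold lower than in mock cells against 9.24% of all genes, and 4 (7.69%) at least 2-fold higher against 18.9%, so the lower count is near the background. Trim71, which encodes an RNA-binding ubiquitin ligase and is a long-known let-7 target, had a mean of 713 ± 398 in mock and 165 ± 155 in let-7 cells, a log2 ratio of -2.11, and 4 let-7 matches in its 3′ UTR. The others at least 2-fold lower were Edc3, an enhancer of decapping (log2 ratio -2.02), Mov10, an RNA helicase that associates with Argonautes (-1.57), Eif4e2, a cap-binding repressor of translation (-1.26), and Cnot10, a subunit of the CCR4-NOT deadenylase (-1.11). Over all pairs of a let-7 and a mock cell, ties split evenly, the let-7 cell had more Edc3 in a share of 0.43. That share was 0.22 for Mov10, 0.14 for Eif4e2 and 0.34 for Cnot10. The Edc3 ratio without the highest cell of each condition was -2.09. Edc3 held a let-7 match in the 3′ UTR, Mov10 and Eif4e2 in the coding sequence and Cnot10 in neither. Among those at least 2-fold higher were Ago3, another Argonaute (log2 ratio 1.76, mean 62.9 ± 104 in mock and 213 ± 284 in let-7 cells), Cnot3 (1.27) and the degradation adaptor Zswim8 (1.16). Zswim8 stood at 0.99, short of 2-fold, without the highest cell of each condition. Ago3 held 1 let-7 match in a 3′ UTR of 12742 bases and 1 in its coding sequence. Its higher mean in let-7 cells thus ran against the lower mean of Ago2.

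With miR-294, 2 of the 52 (3.85%) were at least 2-fold lower against 20.4% of all genes, Zswim8 (log2 ratio -3.11) and Prkra, which encodes another partner of Dicer (-1.51), both counted in few cells. For Prkra the ratio was -0.81, short of 2-fold, without the highest cell of each condition. Lin28a, which blocks let-7 maturation, was the 1 gene at least 2-fold higher (1.92% against 5.78% of all genes), with means of 1.76 ± 12 in mock and 38.8 ± 63.1 in miR-294 cells. In mock over wild-type cells, 5 (9.62%) were at least 2-fold lower against 9.71% of all genes and 8 (15.4%) at least 2-fold higher against 31.8%. Lin28a had the lowest ratio at -7.21, with a wild-type mean of 260.1 ± 174 and a count in 3 of 60 mock and 15 of 16 wild-type cells. Patl1 (-1.43), Lsm1 (-1.28) and Cnot3 (-1.19) were also at least 2-fold lower. Without the highest cell of each condition Patl1 stood at -1.34, while Lsm1 (-0.92) and Cnot3 (-0.65) were short of 2-fold. The 5 highest were Zswim8 (4.46), which rests on 6 counts in wild-type cells, Prkra (3.12), Mov10 (2.85), Papd4 (1.5) and Cnot6l (1.19). Mov10 had means of 513 ± 454 in mock, 258 ± 316 in miR-294 and 71 ± 114 in wild-type cells.

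Of the lists reported here, the let-7 comparison had 0 lower and 1 higher of 1 other Argonaute that passed the filter (Ago3), 2 lower and 1 higher of 11 genes of RISC loading, stability and turnover, 1 lower and 1 higher of 12 deadenylation genes, 2 lower and 0 higher of 12 decapping and repression genes, and none of 3 export and Dicer partners or 6 tailing genes. The median log2 ratio of the 52 genes was -0.17 for miR-294 over mock, -0.03 for let-7 over mock and -0.06 for mock over wild type. Ago4 and Dcp1b did not pass the filter.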

How the data were processed

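Single cells were captured on Fluidigm C1 chips and their cDNA was made into Nextera XT libraries, which carry no strand mark and no molecular identifiers. The authors estimated gene counts with RSEM (version 1.2.19 in the submitters' processing notes) against Gencode M4 transcripts and deposited, for each of 232 runs, expected counts (estimated counts per gene) and FPKM (fragments per unit of length and depth). The study's methods name RSEM with standard parameters, and a legend names TopHat for the alignment. Cells with few reads, low diversity or no sign of the mimic's effect had been removed. Replicate labels mark 2 runs of 50 of the 182 cells.

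For each cell, the deposited expected counts of its runs were added up, rounded and divided by DESeq size factors over the 862 genes counted in every cell. Gene IDs were matched to symbols (41674 of 42493). Condition values are means over cells and their log2 ratio; a gene counts as lower or higher past 2-fold, and means were floored at 3 counts per condition. No test was made because each condition is 1 chip. Detection shares carry exact (Clopper-Pearson) 95% intervals and sums exact Poisson intervals. Cells were also thinned to 500000 counts, and no cell was below that. The 10 genes and all lists were chosen with earlier results of these data known. All 10 genes were named in full; of other pathway genes past 2-fold, at most 5 in each direction per comparison were named by size, and 1 item that met this rule is not reported here. Python 3.11.15, numpy 2.4.6, scipy 1.17.1 and edgeR 4.0.16 (TMM alternative) were used, and the scripts were tested on simulated data. Seed matches used the principal transcript with the longest 3′ UTR (Gencode M21), which may differ from the models counted by the authors.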

Additional observations from a re-analysis of the deposited data

How the results depend on the processing

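Each count of machinery genes past 2-fold was recomputed under 16 alternatives, 2 of them (leaving out the 2 cells whose runs differ, alone or with pairs counted once) chosen after seeing the data. For miR-294 over mock, where 2 genes were lower and 0 higher, the lower count was 1 with total counts and in cells with 1 run, 0 in FPKM, and 3 by the median and at a 1.5-fold threshold. The higher count was 1 with TMM factors, total counts, cells with 2 runs, cells with at least 1000000 counts and FPKM, and 2 with the depth-weighted sum, the median and a 1.5-fold threshold. For let-7 over mock, where 3 were lower and 0 higher, the lower count was 5 by the median, 4 at a 1.5-fold threshold and 4 with pairs counted once and without the discordant cells, and the higher count was 1 at a 1.5-fold threshold. For mock over wild type, where 1 was lower and 3 higher, the lower count was 3 by the median and in cells with 2 runs and 0 in cells with 1 run, and the higher count was 1 with TMM factors, total counts, the depth-weighted sum and FPKM, 2 in cells with 1 run and with at least 1000000 counts, and 4 by the median, without the highest cells and at a 1.5-fold threshold. The cause of these shifts was not tested. Of the 9 ratios past 2-fold, 9 kept their sign under the 14 alternatives that can change a ratio, and 4 stayed past 2-fold in each (Dicer1, Tarbp2 and Ago2 with let-7, and Tnrc6b in mock over wild type). Of the 21 others, 11 kept their sign. No paired analysis was possible because the replicate labels number runs of one cell and no test was made. With 1 chip per condition, differences between chips cannot be told from those between conditions.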
